A study of Mus musculus with 3 samples.

Results

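The 4 genes described here are *C1qa*, *C1qb*, and *C1qc*, which encode the chains of complement C1q, and *C1qtnf6*, which encodes the C1q-related secreted protein CTRP6. They were chosen by name from the gene column of 3 deposited lists, which hold 1238 different entries in all, and all 4 were found. Each list compares 2 of 3 RNA-seq libraries of the suprarenal aorta, the part of the abdominal aorta above the kidneys, and there was 1 library for each cohort. All animals were male apoE null mice on the C57BL/6 strain, which lack apolipoprotein E and are prone to hyperlipidemia, and were 12 weeks old at surgery. The AngII AAA cohort received angiotensin II (AngII) by pump and formed a dissecting abdominal aortic aneurysm (AAA), and its tissue, which includes the aneurysm, was taken no later than 24 hours after diagnosis. The AngII No AAA cohort received the same agent without forming an aneurysm, and the Saline cohort received saline, and both were collected on day 10. Aneurysm and collection time therefore differ together between the AngII cohorts and cannot be told apart. Each library is a pool of equal amounts of RNA from several animals, so differences between cohorts have no replicate check and carry no error or p-value.

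C1q is the recognition protein of the classical complement pathway. Its 3 chains each carry a collagen-like stalk and a globular C1q domain, and they assemble into a bouquet-shaped molecule that binds antibody complexes, dying cells, and other surfaces and then activates the proteases C1r and C1s. Macrophages are a main source of C1q, in contrast to most complement proteins, which come largely from the liver. CTRP6 shares the collagen-like and globular design but is not a chain of C1q.

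The labels name the mm9 mouse genome build. In these coordinates, with the first base counted as 1, *C1qb* (chr4:136436061-136442092), *C1qc* (chr4:136445717-136448829), and *C1qa* (chr4:136451831-136454759) stand side by side within 18699 bases of chromosome 4. Between the genes lie 3624 bases (*C1qb* to *C1qc*) and 3001 bases (*C1qc* to *C1qa*). *C1qtnf6* is on chromosome 15 (chr15:78353776-78360081). The 250 bases before the annotated start were taken from RefSeq on the GRCm38.p6 build for 3 of the 4 genes, and *C1qa* was not matched. They are shown as a description, and a link between these letters and the RNA levels was not tested. All are on the minus strand and are written 5′ to 3′. Capitals mark GAGGAA, the core letters of sites bound by the macrophage and neutrophil factor PU.1, or its reverse complement TTCCTC, and no other motif was searched. The sequences cover chr4:136886201-136886450 for *C1qb*, chr4:136892915-136893164 for *C1qc*, and chr15:78529652-78529901 for *C1qtnf6*, all on GRCm38.p6.
C1qb: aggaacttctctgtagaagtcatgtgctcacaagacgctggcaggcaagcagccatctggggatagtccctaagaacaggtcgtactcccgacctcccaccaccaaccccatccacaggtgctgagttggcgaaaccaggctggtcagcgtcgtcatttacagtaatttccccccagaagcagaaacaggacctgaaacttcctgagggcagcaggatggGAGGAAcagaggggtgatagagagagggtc
C1qc: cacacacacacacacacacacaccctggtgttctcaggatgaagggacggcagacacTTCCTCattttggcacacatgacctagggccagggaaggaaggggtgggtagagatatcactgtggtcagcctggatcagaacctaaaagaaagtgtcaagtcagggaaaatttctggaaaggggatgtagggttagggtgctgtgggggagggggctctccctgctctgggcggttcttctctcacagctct
C1qtnf6: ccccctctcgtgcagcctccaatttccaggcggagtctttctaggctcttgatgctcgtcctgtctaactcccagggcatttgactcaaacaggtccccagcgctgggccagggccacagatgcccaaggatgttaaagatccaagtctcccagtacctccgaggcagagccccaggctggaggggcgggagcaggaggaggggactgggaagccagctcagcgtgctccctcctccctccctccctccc
The *C1qb* sequence held 1 match, beginning 30 bases before the start, and the *C1qc* sequence held 1, beginning 193 bases before the start. The *C1qtnf6* sequence held 0 matches. Of 32851 RefSeq promoters cut to the same 250 bases, 23.3% held at least 1 match on either strand, so a match in a single promoter is common. A match is a description of letters and not a measured binding site.

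Expression was read in FPKM, a fragment count scaled by transcript length and by the reads mapped, which can be set side by side between genes. A gene is listed in a comparison where the authors' unadjusted p-value was under 0.05, and the lists held 715 entries (AngII AAA vs. Saline), 564 (AngII No AAA vs. Saline), and 600 (AngII AAA vs. AngII No AAA). All 4 genes were listed in both comparisons with the Saline cohort, and each was higher in the AngII pool, as were 84.6% of entries with an aneurysm and 63.5% without. Each was higher by a fold of 2 or more in both, against 86.4% and 60.6% of the entries with a finite ratio. None of the 4 was listed in AngII AAA vs. AngII No AAA, where 79.0% of entries were higher in the AngII AAA pool, and 80.3% of those with a finite ratio by a fold of 2 or more. The depth of single pools is unknown, and the design text gives between 35000000 and 43000000 reads per library.

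The RNA of all 3 C1q chains was higher in both AngII pools than in the Saline pool, and it was highest in the AngII AAA pool. *C1qb* was at 413 FPKM in the AngII AAA pool and at 53.1 FPKM in the Saline pool, a 7.78-fold difference and a log2 ratio of 2.96. *C1qc* was at 226 and 41.9 FPKM in the same pools, a log2 ratio of 2.43. *C1qa* was at 207 and 42.8 FPKM, a log2 ratio of 2.28. The chains thus stood at similar levels in the Saline pool, and *C1qb* stood well above the other chains in the AngII AAA pool. *C1qtnf6* was far lower in level, at 28.8 FPKM in the AngII AAA pool and at 6.62 FPKM in the Saline pool, with a log2 ratio of 2.12. All 4 genes had a fold of 4 or more in AngII AAA vs. Saline, where 63.7% of the 677 entries with a finite ratio had such a fold in the same direction. Among the 585 entries with a finite ratio that were higher in the AngII AAA pool, *C1qb* ranked 174 by ratio, *C1qc* 300, *C1qa* 335, and *C1qtnf6* 393. The genes are therefore not extreme by ratio within this list. The chains were nearer the top by level, where *C1qb* ranked 17 of the 715 entries in the AngII AAA pool, *C1qc* 36, and *C1qa* 39, whereas *C1qtnf6* ranked 306.

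Without an aneurysm, the order of the ratios was different. In AngII No AAA vs. Saline, *C1qtnf6* was at 30.0 and 7.24 FPKM, a 4.14-fold difference and a log2 ratio of 2.05, the largest of the 4. *C1qb* was at 190 and 58.0 FPKM, with a log2 ratio of 1.71. *C1qc* was at 122 and 45.7 FPKM and *C1qa* at 105 and 46.8 FPKM, with log2 ratios of 1.41 and 1.17. *C1qtnf6* was the only 1 of the 4 genes with a fold of 4 or more here, where 9.89% of the 546 entries with a finite ratio were higher in the AngII No AAA pool by that fold. In the order of the 345 entries with a finite ratio that were higher in the AngII No AAA pool, *C1qtnf6* ranked 52, *C1qb* 99, *C1qc* 186, and *C1qa* 267. Both comparisons with the Saline cohort use the same pool of Saline RNA, so their ratios are given side by side and are not independent.

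Because each list came from a run of its own, a single factor separated the values of any pool in 1 list from those in another (1.09 for Saline over 227 shared entries), and it was divided out to bring the 3 pools to the scale of the AngII AAA vs. Saline list. There, the AngII No AAA pool was at 174 FPKM for *C1qb*, 111 for *C1qc*, 96.2 for *C1qa*, and 27.4 for *C1qtnf6*. The ratio of the AngII AAA pool to the AngII No AAA pool, read through the Saline pool, was 2.38-fold for *C1qb*, 2.16-fold for *C1qa*, and 2.03-fold for *C1qc*, with log2 ratios of 1.25, 1.11, and 1.02. For *C1qtnf6* it was 1.05-fold, with a log2 ratio of 0.07. The chains were thus between the Saline and AngII AAA levels in the AngII No AAA pool, and *C1qtnf6* was level in both AngII pools. Expressed as a share of the difference in FPKM between the AngII AAA and Saline pools, the AngII No AAA pool had covered 32.4% to 37.8% for the chains (33.6% for *C1qb*) and 93.7% for *C1qtnf6*.

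**Figure D1:**
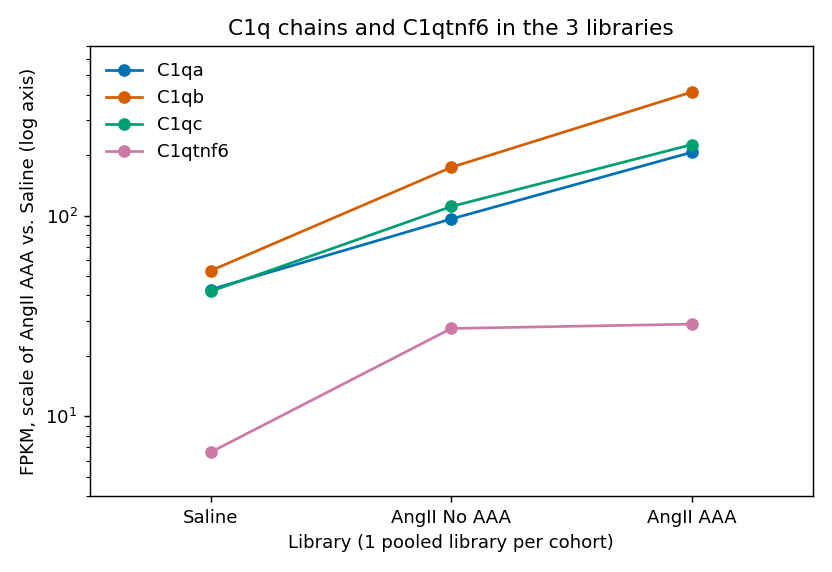
FPKM of the 4 genes (vertical, log axis) in the 3 pools (horizontal), scaled to the AngII AAA vs. Saline list, with 1 pool per point and no error. The lines of the C1q chains climb from Saline through AngII No AAA to AngII AAA (53.1, 174, and 413 FPKM for C1qb), whereas that of C1qtnf6 is flat between the AngII pools (27.4 and 28.8 FPKM).

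Among the 225 entries listed in both comparisons with the Saline cohort and above 0 in every pool, 99 (44.0%) were higher by a fold of 2 or more in the AngII AAA pool than in the AngII No AAA pool, and all 3 chains were among them. The median log2 ratio of these entries was 0.84, with quartiles of 0.45 and 1.59, so the chains lay inside the middle of the range. *C1qtnf6* ranked 192 of the 225, and it was 1 of 7 entries whose log2 ratio lay within 0.1 of 0. The scales of the 3 lists do not close exactly. In the scale of the AngII AAA vs. AngII No AAA list itself, the log2 ratios would be 1.20 for *C1qb*, 1.06 for *C1qa*, 0.97 for *C1qc*, and 0.03 for *C1qtnf6*. The smallest fold that this list holds is 2.30, and the folds on its own scale would be 2.30 for *C1qb*, 2.09 for *C1qa*, and 1.96 for *C1qc*, at or below that value.

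The chains did not keep a fixed ratio to each other. *C1qb* made up 38.6% of the summed FPKM of the chains in the Saline pool, 45.6% in the AngII No AAA pool, and 48.8% in the AngII AAA pool. The share of *C1qa* was 31.1%, 25.2%, and 24.5% in the same order, and that of *C1qc* was 30.4%, 29.2%, and 26.7%. *C1qb* was at 1.24 times the level of *C1qa* in the Saline pool, 1.81 times in the AngII No AAA pool, and 1.99 times in the AngII AAA pool. The levels of *C1qa* and *C1qc* stayed closer, with *C1qc* at 0.978, 1.16, and 1.09 times *C1qa*. Whether these shares differ beyond the spread between animals could not be tested. The summed FPKM of the chains was 138 in the Saline pool, 381 in the AngII No AAA pool, and 846 in the AngII AAA pool. This sum was 20.8 times the level of *C1qtnf6* in the Saline pool, 13.9 times in the AngII No AAA pool, and 29.4 times in the AngII AAA pool.

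Macrophage markers were higher in the same pools. Of 24 markers, 21 were listed in AngII AAA vs. Saline, each at a higher FPKM with the aneurysm, as were 84.6% of all entries. The log2 ratios of the markers ran from 2.19 to 4.48, with a median of 3.63. Over all 677 entries with a finite ratio, the median was 2.26. The log2 ratios of the chains lay at the lower end of the markers: 20 of the 21 were above *C1qa* and *C1qc*, and 17 were above *C1qb*. The markers nearest to *C1qa* and *C1qc* were *Aif1* (log2 ratio 2.19), which encodes a calcium-binding protein of macrophages, and *Lyve1* (2.46), a hyaluronan receptor of lymphatic endothelium and of resident macrophages in vessel walls. *C1qb* stood between *Mrc1* (2.72), the mannose receptor, and *Laptm5* (3.03), a lysosomal protein of blood cells. *Trem2*, a lipid-sensing receptor of macrophages, and *Tyrobp*, its signalling adaptor, had the largest log2 ratios of the markers, at 4.48 and 4.47.

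In AngII No AAA vs. Saline, 15 of the 24 macrophage markers were listed, all higher in the AngII No AAA pool, as were 63.5% of all entries. The median log2 ratio of the markers was 1.64, against 1.16 over all 546 entries with a finite ratio. Here the chains were spread through the markers: 3 of the 15 were above *C1qb*, 10 above *C1qc*, and 13 above *C1qa*. *C1qtnf6* was above 13 of the 15 markers in this comparison and below all 21 in AngII AAA vs. Saline. The sets of markers differ, because each comparison lists only entries under its p-value threshold. Values in all 3 pools could be read for 21 markers, none at 0, and each was highest in the AngII AAA pool. Their summed FPKM was 240 in the Saline pool, 610 in the AngII No AAA pool, and 3154 in the AngII AAA pool. Relative to this sum, the summed chains were at 57.5% in the Saline pool, 62.5% in the AngII No AAA pool, and 26.8% in the AngII AAA pool. Taken marker by marker, the ratio of the summed chains to the marker was lower with the aneurysm than in the AngII No AAA pool for 18 of the 21. The exceptions were *Aif1*, *Lyve1*, and *Ms4a7*. These exceptions are absent from the list that compares both AngII pools directly, and the 18 markers are all in it. The smallest finite fold in that list is 2.30, and the summed chains differed 2.22-fold when read through the Saline pool. Being listed therefore already fixes the lower ratio for the 18 markers, and no conclusion is drawn from this count. Among the 18 markers, the ratio differed least between the AngII pools for *Adgre1*, which encodes the macrophage surface protein F4/80. There the summed chains were at 68.2 times its level in the Saline pool, 56.7 times in the AngII No AAA pool, and 50.7 times in the AngII AAA pool. The ratio differed most for *Msr1*, a scavenger receptor, with 71.5, 179, and 35.4 times in the same order. Set against the Saline pool, the ratio was lower in the AngII AAA pool for 18 of the 21 as well, the exceptions being *Aif1*, *Lyve1*, and *Csf1r* (8.51 and 8.26 times for *Csf1r*). C1q RNA relative to the summed RNA of the 21 markers was lowest in the AngII AAA pool. All 21 were listed as higher in that pool than in the Saline pool, which favours a low share there. No conclusion is therefore drawn from the share or from the count against the Saline pool. A large part of the marker sum was *Lyz2*, at 1109 FPKM in the AngII AAA pool, 161 in the AngII No AAA pool, and 66.9 in the Saline pool. Which cells the marker RNA came from was not tested. In pooled tissue, fewer cells of a type and less RNA per cell cannot be told apart.

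**Figure D2:**
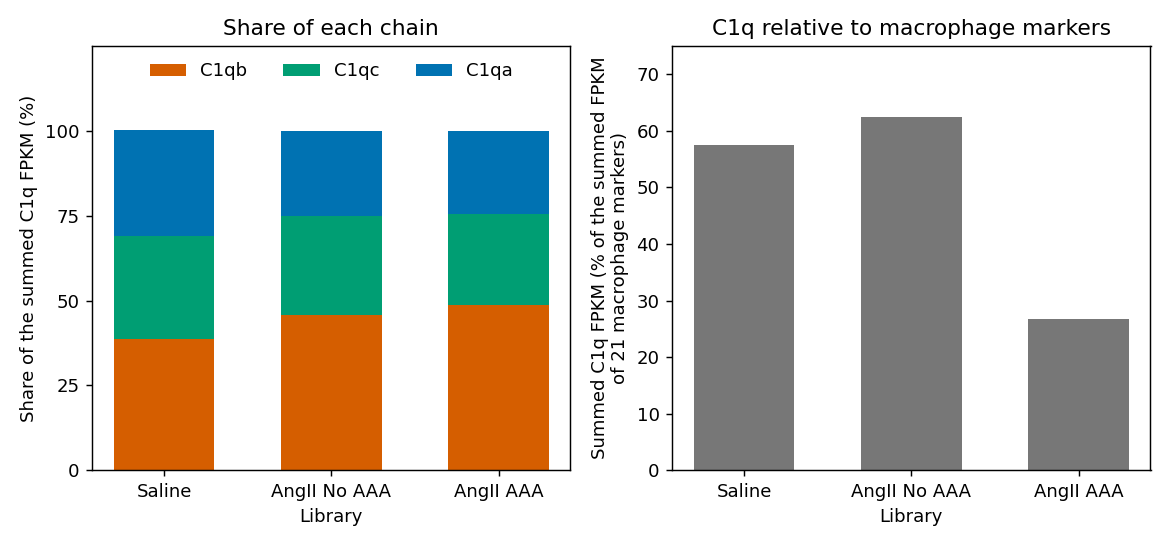
Left, share of each chain in the summed C1q FPKM (vertical, %) in each pool. Right, summed C1q FPKM as a percentage of the summed FPKM of 21 macrophage markers. All 21 were listed as higher in AngII AAA than in Saline, which favours a low bar in AngII AAA. The share of C1qb grows from 38.6% in Saline to 48.8% in AngII AAA, and the bar on the right is lowest in AngII AAA at 26.8%. Each bar is 1 pool and has no error.

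Markers of other cell types also differed between the pools. Of 10 neutrophil markers, 6 had values in all pools, with a summed FPKM of 53.0 in the Saline, 44.1 in the AngII No AAA, and 1159 in the AngII AAA pool. All 5 adrenal cortex markers were higher in the AngII AAA pool, as were 84.6% of all entries against Saline and 79.0% against AngII No AAA. Their summed FPKM was 440, against 13.8 in the AngII No AAA and 10.4 in the Saline pool. Of 8 skeletal muscle markers, 4 had values in all pools and were highest in the Saline pool (summed FPKM 265, against 59.4 in the AngII AAA and 41.5 in the AngII No AAA pool). Among all entries, 110 of 715 were lower in AngII AAA vs. Saline and 206 of 564 in AngII No AAA vs. Saline. Of 10 smooth muscle markers, which define the labelled tissue, the comparison of both AngII pools listed 7, each lower with the aneurysm. In that comparison, 126 of all 600 entries were lower. *Acta2*, smooth muscle actin, was at 304 FPKM in the AngII AAA pool and 926 FPKM in the AngII No AAA pool in that list. The 5 adipocyte and 4 endothelial markers were not listed. Of 6 fibroblast markers, *Pi16* had values in all pools and was highest in the AngII No AAA pool, at 183 FPKM, against 63.8 in the Saline and 48.5 in the AngII AAA pool. The other listed fibroblast markers were higher than in the Saline pool: *Col3a1* at 717 and 93.2 FPKM in AngII AAA vs. Saline, and *Lum* at 110 and 45.8 FPKM in AngII No AAA vs. Saline. The part of these cell types in the levels of the C1q chains and *C1qtnf6* was not tested.

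The complement system was read from a list of 57 genes that includes the chains, of which 17 were listed in at least 1 comparison. In AngII AAA vs. Saline, 11 were listed, each above Saline by a fold of 4 or more (63.7% of all entries with a finite ratio), and the median log2 ratio was 2.96 against 2.26 over all entries. The chains were 3 of the 11, and the median is the ratio of *C1qb* itself. In AngII No AAA vs. Saline, 10 genes of the list were higher, the 3 chains among them, and 1 was lower, where 63.5% of all entries were higher. Of these, 0 were higher by a fold of 4 or more, against 9.89% of all entries with a finite ratio. In AngII AAA vs. AngII No AAA, 7 were listed, each higher with the aneurysm, as were 79.0% of all entries. Of the 7, 3 were higher by a fold of 4 or more, where 31.5% of the 584 entries with a finite ratio had such a fold in that direction. No chain was among the 7.

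Of the proteases that C1q activates, *C1s1*, encoding C1s, was listed in AngII No AAA vs. Saline, at 52.2 and 20.5 FPKM and a log2 ratio of 1.34. *C1ra* was not listed in any comparison. The next components of the classical pathway, *C4b* (55.9 and 23.2 FPKM, log2 ratio 1.27) and *C2* (23.5 and 10.1 FPKM, log2 ratio 1.22), were listed in the same comparison only. Their log2 ratios lay among those of the chains. *Cfb*, the protease component of the alternative pathway convertase, was at 38.0 and 17.4 FPKM, a log2 ratio of 1.13. *Cfp*, encoding properdin, which stabilizes that convertase and is made by leukocytes, was listed in every comparison, at 108 FPKM in the AngII AAA pool, 37.1 in the AngII No AAA pool, and 10.3 in the Saline pool. It was thus graded over the pools as the chains were, with a larger log2 ratio of 3.39 in AngII AAA vs. Saline. *Fcna*, a ficolin that starts the lectin pathway, was listed only in AngII AAA vs. Saline, at 17.5 and 3.98 FPKM. *C3*, the central component, and the 7 terminal components were not listed.

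Of 13 complement receptors, 6 were listed in AngII AAA vs. Saline, with log2 ratios from 2.08 to 4.33 and a median of 3.24. *Itgam* and *Itgb2*, the subunits of complement receptor CR3 of neutrophils and macrophages, had log2 ratios of 4.33 and 3.39. *C3ar1* and *C5ar1*, the receptors of the anaphylatoxins C3a and C5a, had log2 ratios of 3.55 and 3.09. Each of these exceeded *C1qb*, the highest of the chains. *Cd93* (2.12) and *Lair1* (2.08), a membrane glycoprotein once proposed as a C1q receptor and an inhibitory receptor that binds collagen and C1q, lay below *C1qa*. In AngII AAA vs. AngII No AAA, *C5ar2* was listed as well, at 6.24 and 2.17 FPKM. In AngII No AAA vs. Saline, the listed receptors were *Itgam* (log2 ratio 1.74) and *C3ar1* (1.56), on either side of *C1qb* (1.71). Of the 14 regulators, *Susd4*, a complement inhibitor, was listed, at 7.74 FPKM in the Saline pool and with a log2 ratio of -1.95 in AngII No AAA vs. Saline. It was the 1 gene of the complement list that was lower in a first-named cohort.

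*C1qtnf6* was set beside the other genes that encode a C1q domain, a list of 31 that also holds the chains, of which 9 were listed in at least 1 comparison. *Col8a1*, a short-chain collagen of vessel walls, was at 30.1 FPKM in the AngII AAA pool, 22.6 in the AngII No AAA pool, and 6.84 in the Saline pool, with a log2 ratio of 0.42 between the AngII pools, the smallest after that of *C1qtnf6* among the 6 genes of the list with values in all pools. *Emilin2*, an elastin-associated glycoprotein, was at 59.6, 14.6, and 7.60 FPKM in the same order, with a log2 ratio of 2.03 in AngII AAA vs. AngII No AAA. The smallest finite fold in that list is 2.30, so any entry higher there lies at or above the chains by being listed. *C1qtnf2*, encoding CTRP2, was listed only in AngII AAA vs. AngII No AAA and was lower in the AngII AAA pool, at 6.75 against 23.9 FPKM. *C1qtnf5* was listed in an entry shared with the overlapping gene *Mfrp*, at 32.7 FPKM in the AngII No AAA pool and 10.7 FPKM in the Saline pool, and the value cannot be divided between them. *Mmrn1*, a multimerin of platelets and endothelium, was listed only in AngII AAA vs. Saline, with a log2 ratio of 1.58.

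**Figure D3:**
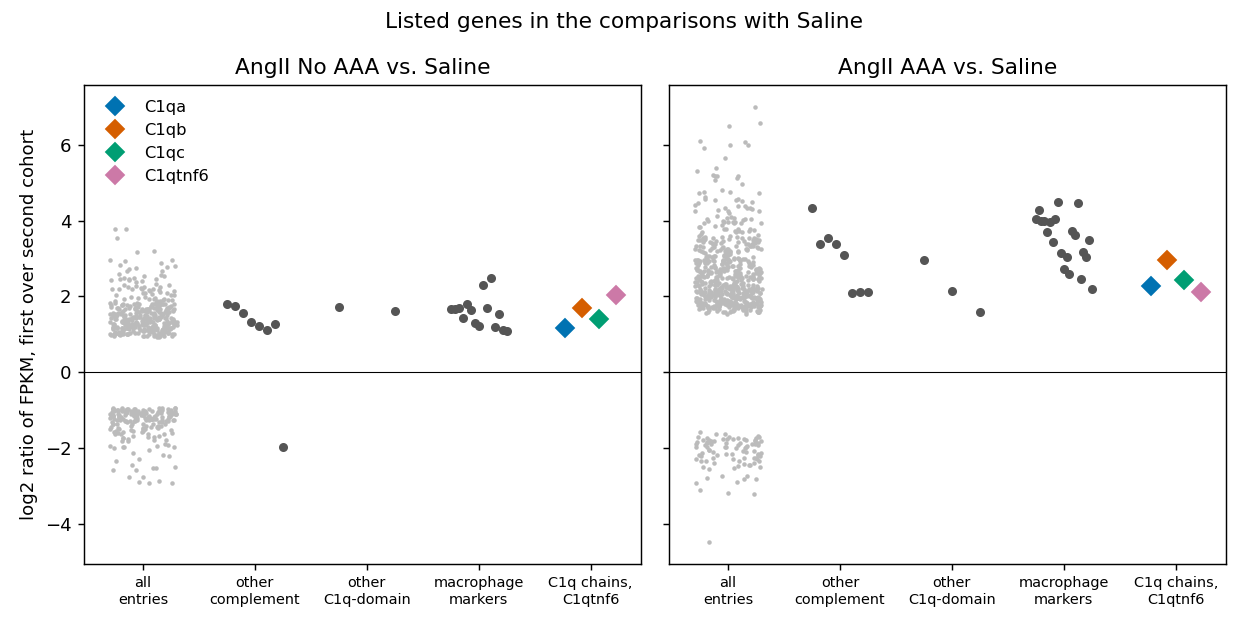
Log2 ratio of FPKM (vertical) in AngII No AAA vs. Saline (left) and AngII AAA vs. Saline (right). Grey dots are all entries with a finite ratio, dark dots the other listed complement genes, C1q-domain genes, and macrophage markers, and diamonds the 4 genes. C1qtnf6 is the highest diamond on the left (2.05) and the lowest on the right (2.12), and most macrophage markers on the right lie above the diamonds.

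The genes whose levels were most like those of the chains were found by the distance between log2 ratios to the Saline pool, over 537 entries of a single gene with values above 0 in all 3 pools. The mean of the chains was 2.56 for the AngII AAA pool and 1.43 for the AngII No AAA pool. Near it were *Ckap4* (distance 0.03), *Tnfaip2* (0.09), *Tpm4* (0.10), and *AI607873* (0.12). *Ckap4*, the nearest, encodes a membrane protein of the endoplasmic reticulum and was at 110 FPKM in the AngII AAA pool, 50.9 in the AngII No AAA pool, and 18.6 in the Saline pool. Of the others, *Tpm4* encodes a tropomyosin and *Tnfaip2* a protein induced by tumor necrosis factor. The genes nearest to *C1qtnf6*, over 539 entries, were other genes: *Itih4* (distance 0.11), *Fbn1* (0.13), *Cpxm1* (0.22), *Mfap5* (0.28), and *Cd302* (0.30). *Fbn1* and *Mfap5* encode fibrillin-1 and a microfibril-associated glycoprotein of the extracellular matrix. *Fbn1* was at 92.6 FPKM in the AngII AAA pool, 78.3 in the AngII No AAA pool, and 20.6 in the Saline pool. With 3 pools, a profile holds only 2 ratios, so nearness is a description of these pools.

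**Figure D4:**
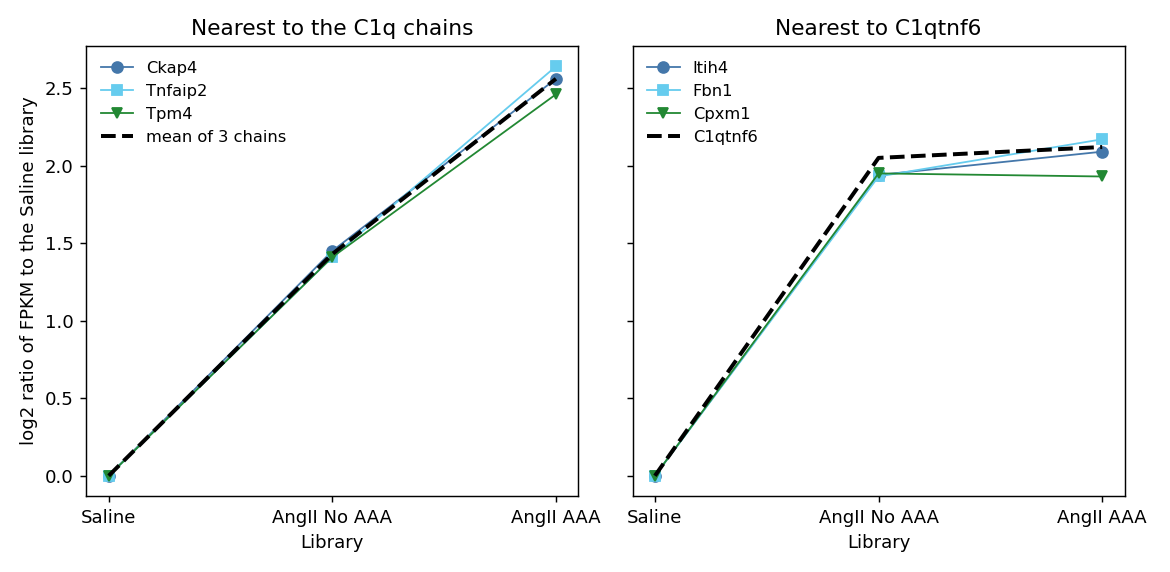
Log2 ratio of FPKM to the Saline pool (vertical) in the 3 pools (horizontal) for the 3 genes nearest to the mean of the C1q chains (left) and to C1qtnf6 (right), with the profile itself dashed. The left profiles climb to about the mean of 2.56 in AngII AAA, and the right ones are level or nearly so between the AngII pools.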

How the data were processed

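RNA-seq of 3 pooled suprarenal libraries was analysed. The authors used FastQC for read quality, HISAT2 for alignment, and Cufflinks with Cuffdiff for quantification; versions are not given in the sources used here, and the submitters' processing notes name the mm9 build. The authors deposited FPKM values of both libraries of each pair of cohorts, from a separate Cuffdiff run per pair, and kept only entries with an unadjusted p-value under 0.05, which held for every entry. Since genes outside the lists cannot be read, an absent gene may be unchanged, untested, or below detection. The lists also hold the authors' fold changes, test scores, and p-values, which were not used as results.

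Log2 ratios were computed from FPKM with no pseudocount and no filter on low values. A library's values differed between lists by a constant (0.968 for AngII AAA, 1.09 for Saline, and 1.09 for AngII No AAA), the median over shared entries. The AngII No AAA value came from AngII AAA vs. AngII No AAA where listed there. Locus starts were raised by 1 base, because end minus start equalled the RefSeq gene length for 445 of 1164 entries, against 35 with 1 base added.

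No test was run, because each cohort had 1 library, and the number of reads behind a value is unknown. The genes and lists were chosen with earlier results of these data known. Genes named are the 4 genes, the listed complement and C1q-domain genes, macrophage markers next to the chains in ratio, and the 5 nearest genes by distance, of which 1 is not reported here; *Trem2*, *Tyrobp*, *Adgre1*, *Msr1*, *Csf1r*, *Ms4a7*, *Acta2*, *Pi16*, *Col3a1*, and *Lum* were named after their values were seen. Alternatives were a pseudocount of 1 FPKM, a fold of 2, at least 1 FPKM, no rescaling, the other source of the AngII No AAA value, and, added after seeing the data, the scale of the AngII AAA vs. AngII No AAA run and entries of a single gene. The calculations were tested on simulated data. Python 3.11.15, pandas 2.3.3, numpy 2.4.6, and matplotlib 3.10.9 were used.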

Additional observations from a re-analysis of the deposited data

How the results depend on the processing

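With a pseudocount of 1 FPKM, the log2 ratios for AngII AAA vs. Saline became 2.25 (*C1qa*), 2.94 (*C1qb*), 2.40 (*C1qc*), and 1.97 (*C1qtnf6*). Those for AngII No AAA vs. Saline became 1.15, 1.69, 1.39, and 1.91 in the same order, and those of the AngII AAA over the AngII No AAA library read through the Saline library became 1.10, 1.24, and 1.01 for the chains. In the scale of the AngII AAA vs. AngII No AAA run, chosen after seeing the data, the latter were 1.06, 1.20, and 0.97 for the chains in that order and 0.03 for *C1qtnf6*. With no rescaling, the AngII No AAA levels were 105, 190, 122, and 30.0 FPKM in the same order. At a fold of 2, 15 macrophage markers were higher for AngII No AAA vs. Saline (2 at a fold of 4), 10 complement genes (0 at a fold of 4), and 6 C1q-domain genes (1 at a fold of 4), and AngII AAA vs. AngII No AAA had 7 complement genes higher (3 at a fold of 4). No direction of a ratio of the 4 genes reversed under these settings. A reading of the ratios to the Saline library through the AngII AAA vs. AngII No AAA list was not run, because that list does not hold the genes. No paired analysis was possible because each cohort had 1 library. With 1 pool per cohort and an unknown number of reads behind each value, no spread between animals can be given.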
